A study of Arabidopsis thaliana with 7 samples.

Results

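The genes described here carry nitrate to ammonium in Arabidopsis thaliana roots and supply the electrons and the cofactor for the second of these reductions. They were chosen by name for their roles, with earlier results of these data known, and number 9 of the 32833 genes in the count tables: the nitrate reductases NIA1 and NIA2, the nitrite reductase NIR1, the root-type ferredoxin-NADP+ reductases RFNR1 and RFNR2, the root-type ferredoxin FD3, the siroheme synthesis enzyme UPM1, and the plastid glucose-6-phosphate dehydrogenases G6PD2 and G6PD3. Gene expression was measured by RNA-seq in roots of wild-type Col-0 (3 libraries, replicates 1, 3 and 4) and of cepd (4 libraries, replicates 1 to 4). The cepd line carries mutations in ROXY6, ROXY7, ROXY8 and ROXY9 at once, made by CRISPR/Cas9 editing of Col-0. These 4 genes encode the CEPD glutaredoxins, small proteins that move from shoot to root when N is short. Seedlings of both genotypes spent 7 days on FN (full nutrition), where the N sources were glutamine at 1 mM, NH4NO3 at 1 mM and KNO3 at 2 mM. They then spent 2 days on LN (low N), where NH4NO3 was at 50 µM and KNO3 at 0.1 mM, with KCl added at 3 mM. Plates held 0.5% sucrose and stood in continuous light at 22°C. Per the study's methods, the samples came from 4 independent experiments, and each library pooled the roots of 50 seedlings from 5 plates. The methods also state that 1 Col-0 data set was left out because leaf material had contaminated its sample. Col-0 replicate 2 is not among the libraries used here. All libraries came from LN roots, so a level says nothing about the response to the transfer itself, and only 1 mutant line was measured.

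Nitrate reductase, a cytosolic enzyme with a molybdenum cofactor, turns nitrate into nitrite. Nitrite enters the plastid, where nitrite reductase turns it into ammonium with electrons from ferredoxin, using siroheme as its cofactor. In root plastids without photosynthetic electron flow, the electrons come from NADPH made by the oxidative pentose phosphate pathway. They reach root-type ferredoxin through root-type ferredoxin-NADP+ reductase.

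NIA1 (AT1G77760) lies on the minus strand of chr1:29235721-29239484 and NIA2 (AT1G37130) on the plus strand of chr1:14158452-14161938, in RefSeq's TAIR10.1 annotation. NIR1 (AT2G15620) occupies chr2:6810395-6812941 on the plus strand. RFNR1 (AT4G05390, chr4:2738531-2740927), RFNR2 (AT1G30510, chr1:10806930-10809188) and FD3 (AT2G27510, chr2:11757955-11759588) are all on minus strands. UPM1 (AT5G40850, chr5:16365900-16369316), G6PD2 (AT5G13110, chr5:4158639-4161845) and G6PD3 (AT1G24280, chr1:8609338-8612580) are all on plus strands. All 9 are protein-coding nuclear genes.

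The genomic sequences below are shown because the ROXY proteins act on TGA transcription factors, whose recognition core is TGACG, and because NIN-LIKE PROTEIN factors bind a nitrate-responsive element. Within 1000 bases before the annotated start, on either strand, TGACG occurred in 2 of the 9 genes (NIA1 and RFNR2), beside 55.2% of 20549 genes. Its palindromic form TGACGTCA occurred in RFNR2 alone, beside 1.29% of those genes, and overlaps TGACG on both strands. TACGTA, another element bound by TGA factors, occurred in none of the 9, beside 16.1%, and the core searched for the nitrate-responsive element, GACNCTT and then AAG after a gap of 10 bases, in none, beside 0.457%. When the window was extended to 200 bases past the start, an extension chosen after the sequences had been seen, that core was found in NIR1, inside its annotated 5′ untranslated region, beside 0.574% of genes. The longer window also held TGACG and TACGTA in FD3, beside 64.9 and 18% of genes. Each sequence is from TAIR10.1 and is written 5′ to 3′ on the strand of the gene it is named for, with the bases of the motif in capitals.
RFNR2, TGACGTCA at bases -524 to -517 from the start, chr1:10809679-10809738, minus strand, inside an exon of the neighbouring gene AT1G30515: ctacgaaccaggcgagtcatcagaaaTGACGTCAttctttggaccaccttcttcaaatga
NIA1, TGACG at bases -352 to -348 from the start, chr1:29239804-29239863, minus strand, between annotated genes: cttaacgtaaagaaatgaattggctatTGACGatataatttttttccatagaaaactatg
NIR1, nitrate-responsive element core at bases 65 to 84 after the start, chr2:6810454-6810483, plus strand: aacttGACcCTTtacattgctcAAGagctc
A match describes the letters only. RFNR2, the member that fell most in cepd, holds the TGACGTCA match, and NIA1, the member with no difference past the test, holds a TGACG match. FD3, which fell too, held TGACG only in the longer window. Since NIA1 alone did not pass, the matches cannot be compared between members that fell and members that did not.

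The libraries held 30758339 to 46611731 counts, and every member had at least 1725 counts in each. Of the mutated genes, ROXY6 had 196 to 226 counts in the Col-0 libraries and 104 to 210 in cepd. In CPM (counts scaled to library size) it did not overlap, at 5.23 to 5.96 in Col-0 and 2.79 to 4.48 in cepd. It was lower in cepd by the edgeR test described below (log2FC -0.57, adjusted p = 0.0323), which ROXY7 and ROXY8 did not pass. ROXY7 had 6 to 34 and ROXY8 42 to 104 over all 7 libraries, and ROXY9 had at most 1, so the counts do not check the genotype, since edited genes can still be transcribed. All 10 root markers were detected in every library. Of these, PYK10, by far the most abundant, was higher in cepd (log2FC 1.05), the root hair genes COBL9 and EXPA7 were lower (-0.61 and -0.76), and the other 7 did not pass the test described below. The leaf identity markers YAB1, YAB3, YAB5, FAMA and GL1 had at most 6 counts summed over the libraries of a genotype, and GL1 had 0 in all. Of the other 4, SPCH and KAT1 had 8 to 24, while the epidermal genes PDF1 and CER1 were expressed, with 13279 and 706 counts in Col-0 and 19017 and 945 in cepd. The summed level of 20 photosynthesis genes was 277.5 to 368.2 CPM in Col-0 and 655.8 to 864.2 CPM in cepd. Of the 20, 13 were higher in cepd and none lower, beside 9.64 and 8.3% of all genes tested. The summed level of the 9 leaf identity markers overlapped (111.5 to 139.5 and 108 to 149.1 CPM). Nearly all of it was PDF1, so it says little about the other leaf identity markers. The part that this difference in photosynthesis transcripts has in the results below was not tested.

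Of the 9 genes, 8 were lower in cepd at an adjusted p under 0.05 (edgeR's quasi-likelihood test with Benjamini-Hochberg adjustment over 20600 genes), and none was higher. Over all genes tested, 8.3% were lower and 9.64% higher. The change was over 2-fold for 5 of the 9, beside 2.45% of all genes, and the median log2FC of the 9 was -1.02, beside 0.01 over all genes. For the same 8 genes every cepd library lay below every Col-0 library, as for 13.8% of all genes. In the fit that blocks on the replicate number, where cepd replicate 2 has no partner, the same 8 were lower, beside 13.2% of all genes (13.9% were higher), and 4 were past 2-fold, beside 2.36%. Together the 9 genes took 0.337, 0.457 and 0.381% of all counts in Col-0 replicates 1, 3 and 4, and between 0.195 and 0.213% in the 4 cepd libraries. In bulk root RNA, fewer cells of a type and less RNA per cell cannot be told apart.

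**Figure D1:**
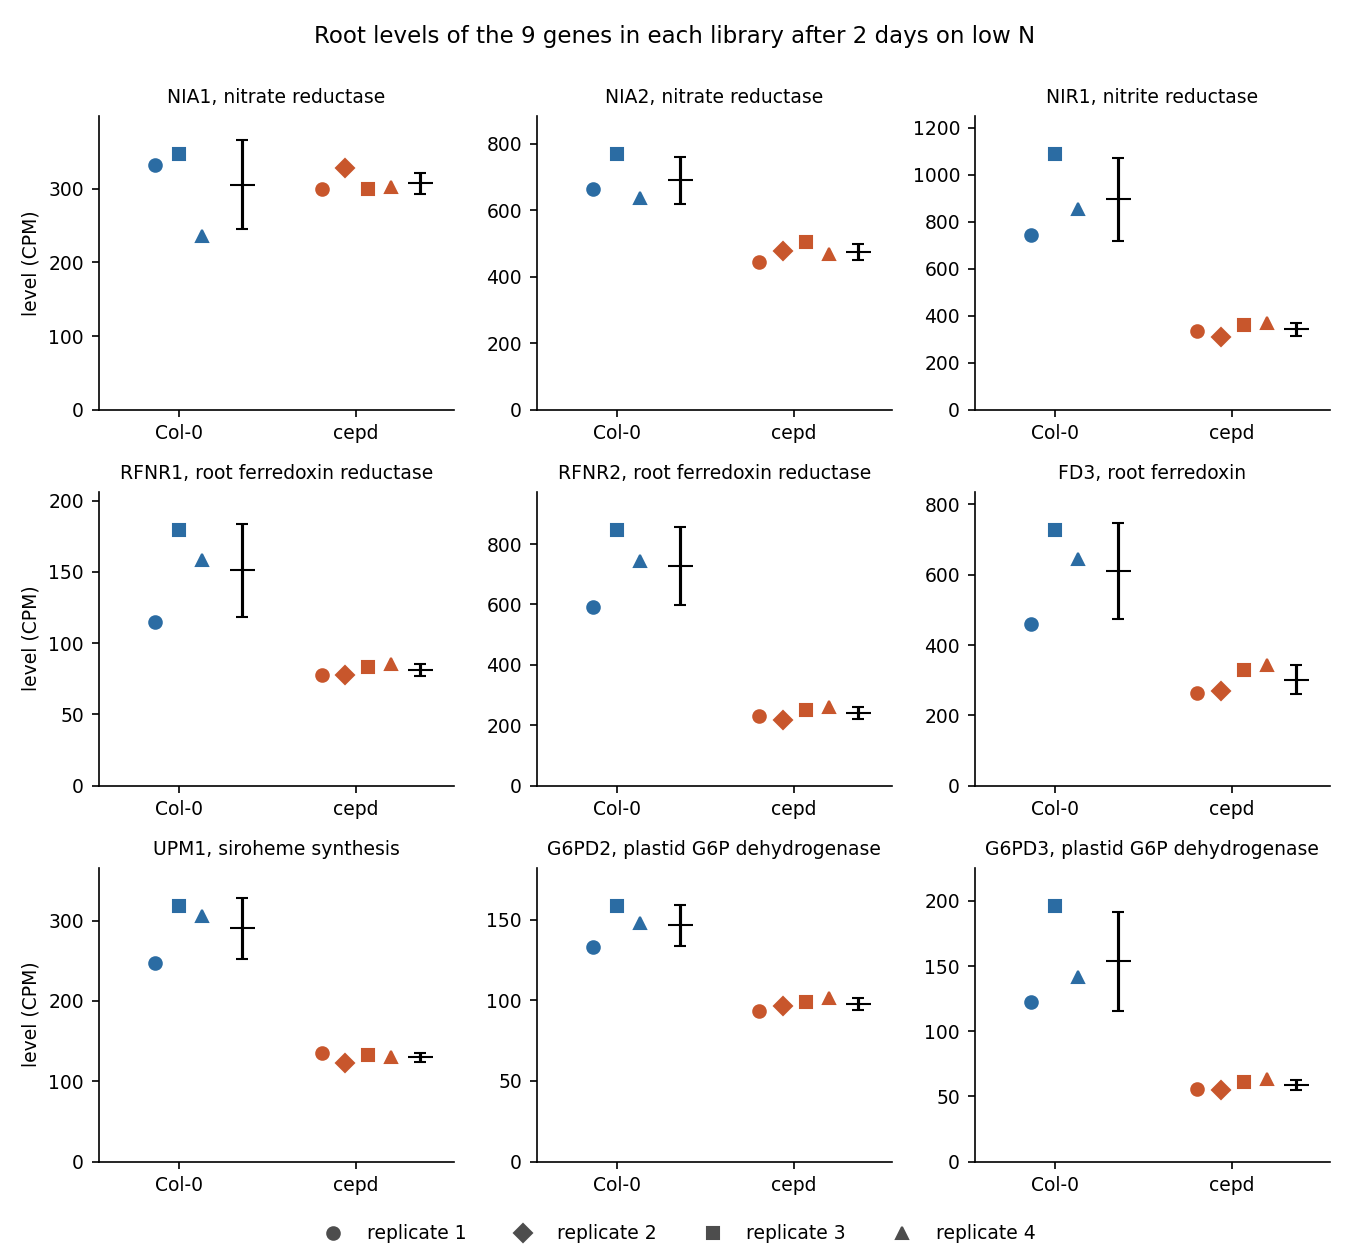
Levels of the 9 genes in CPM (vertical axes from 0) in each of the 3 Col-0 (blue) and 4 cepd (orange) root libraries, with the mean and SD of each genotype as a black bar and the replicate number as the point shape. The cepd points lie below every Col-0 point in each panel but that of NIA1, where the groups overlap.

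The first step, nitrate to nitrite, was split between its 2 genes. NIA1 stood at 332, 347 and 236 CPM in Col-0 replicates 1, 3 and 4, and at 299.7, 328, 299.0 and 302 CPM in cepd replicates 1 to 4. The Col-0 libraries lay on both sides of the cepd libraries, and the log2FC was 0.01 (standard error 0.12, adjusted p = 0.969 with edgeR). Its sign was not settled. The log2FC was -0.14 without Col-0 replicate 4 (adjusted p = 0.242 with edgeR), -0.02 without cepd replicate 2 and -0.004 with the replicate number as a block. NIA2, the isoform known to account for most nitrate reductase activity in Arabidopsis, stood at 663, 768 and 636 CPM in Col-0 and at 445, 477, 504 and 467 CPM in cepd. Here the groups did not overlap, and NIA2 fell by 0.54 on the log2 scale (standard error 0.08, adjusted p = 0.00194), or 1.46-fold. The NIA1 to NIA2 ratio within a library, which needs no scaling between libraries, tested the difference between the genes directly. On the log2 scale it was -0.996, -1.15 and -1.43 in Col-0 and -0.57, -0.54, -0.75 and -0.63 in cepd. Every cepd value was above every Col-0 value, with a difference of 0.57 (two-sided exact permutation test over the 7 libraries, p = 0.0286, adjusted p = 0.0343 over 6 ratios). With these group sizes 0.0286 is the smallest p that test can give.

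NIR1, the only nitrite reductase gene in the set, stood at 744, 1088 and 853 CPM in Col-0 and at 334, 308, 361 and 367 CPM in cepd. The lowest Col-0 library was above the highest cepd library by a wide margin, and NIR1 fell by 1.39 on the log2 scale (standard error 0.12, adjusted p = 0.000124 with edgeR), or 2.61-fold. NIR1 therefore fell further than the nitrate reductases did. The log2 ratio of NIR1 to the summed CPM of NIA1 and NIA2 was -0.42, -0.04 and -0.03 in Col-0 and -1.16, -1.38, -1.15 and -1.07 in cepd. The groups did not overlap, and the ratio was lower in cepd by 1.03 on the log2 scale (exact permutation test, adjusted p = 0.0343). In linear terms the CPM of NIR1 was 0.893 of that of the nitrate reductases in Col-0 and 0.438 in cepd. CPM also depends on gene length, so only the change of this and the other ratios between genotypes is a comparison.

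UPM1, uroporphyrinogen III methyltransferase, makes the first committed step toward siroheme, the cofactor of nitrite and sulfite reductase. Its levels were 248, 318 and 306 CPM in Col-0 and 135, 122, 133 and 130.0 CPM in cepd. The cepd libraries were tightly grouped (coefficient of variation 4.23%) and all below Col-0, and UPM1 fell by 1.16 on the log2 scale (standard error 0.09, adjusted p = 6.68e-05 with edgeR). The log2 ratio of UPM1 to NIR1 had a mean of -1.61 ± 0.15 (SD over 3 libraries) in Col-0, against -1.40 ± 0.09 (SD over 4) for cepd. The 2 groups overlapped, and the difference of 0.22 did not pass (exact permutation test, p = 0.0857, adjusted p = 0.0857), which does not show that the genes fell to the same extent.

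Electrons reach nitrite reductase from ferredoxin. FD3, the ferredoxin of non-photosynthetic plastids, stood at 459, 727 and 644 CPM in Col-0 and at 264, 269, 329.5 and 343 CPM in cepd. It fell by 1.02 on the log2 scale (standard error 0.16, adjusted p = 0.00216 with edgeR) without overlap of the groups. FD3 varied most among the cepd libraries of the 9 genes (coefficient of variation 13.6%) and lay closest to the 2-fold mark: it was the member past that mark by the least, with RFNR1 just short of it, and with the replicate number as a block its log2FC was -0.95. FD3 fell less than NIR1. The log2 ratio of FD3 to NIR1 was -0.70, -0.58 and -0.40 in Col-0 and -0.34, -0.19, -0.13 and -0.10 in cepd, higher in all 4 cepd libraries by 0.37 on average (exact permutation test, p = 0.0286, adjusted p = 0.0343).

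The ferredoxin-NADP+ reductases pass electrons from NADPH to ferredoxin in roots. RFNR2 stood at 591, 847 and 743 CPM in Col-0 and at 229, 218, 252 and 261 CPM in cepd, and its drop of 1.60 on the log2 scale (standard error 0.12, adjusted p = 5.61e-05 with edgeR) was the largest of the 9 genes. RFNR1 was at 115, 179.5 and 159 CPM in Col-0 and at 77.6, 77.4, 83.1 and 85.7 CPM in cepd. It fell by 0.90 on the log2 scale (standard error 0.13, adjusted p = 0.00158). Neither gene's groups overlapped, but the isoforms fell to different extents. The log2 ratio of RFNR2 to RFNR1 was 2.36, 2.24 and 2.23 in Col-0 and 1.56, 1.49, 1.60 and 1.61 in cepd. With an SD of 0.07 in Col-0 and 0.05 in cepd this ratio had the smallest SD of the 6 in both genotypes, and it was lower in cepd by 0.71 (exact permutation test, p = 0.0286, adjusted p = 0.0343). In linear terms RFNR2 had 4.84 times the CPM of RFNR1 in Col-0 and 2.96 times in cepd.

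Glucose-6-phosphate dehydrogenase makes the first NADPH of the oxidative pentose phosphate pathway. G6PD3 stood at 123, 196 and 142 CPM in Col-0 and at 55.9, 54.9, 60.7 and 63.5 CPM in cepd. Col-0 replicate 3 was far above the other Col-0 libraries, yet the lowest Col-0 library was still above all cepd libraries, and G6PD3 fell by 1.39 on the log2 scale (standard error 0.14, adjusted p = 0.000281 with edgeR). G6PD2 was at 133, 159 and 148 CPM in Col-0 and at 93.2, 96.4, 99.0 and 102 CPM in cepd. It fell by 0.59 (standard error 0.08, adjusted p = 0.000904), again without overlap. In Col-0 the log2 ratio of the CPM of G6PD3 to that of G6PD2 was -0.12, 0.31 and -0.06. In cepd that ratio was -0.74, -0.81, -0.71 and -0.68, a difference of -0.78 (exact permutation test, p = 0.0286, adjusted p = 0.0343), and G6PD3 had 0.602 times the CPM of G6PD2.

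**Figure D2:**
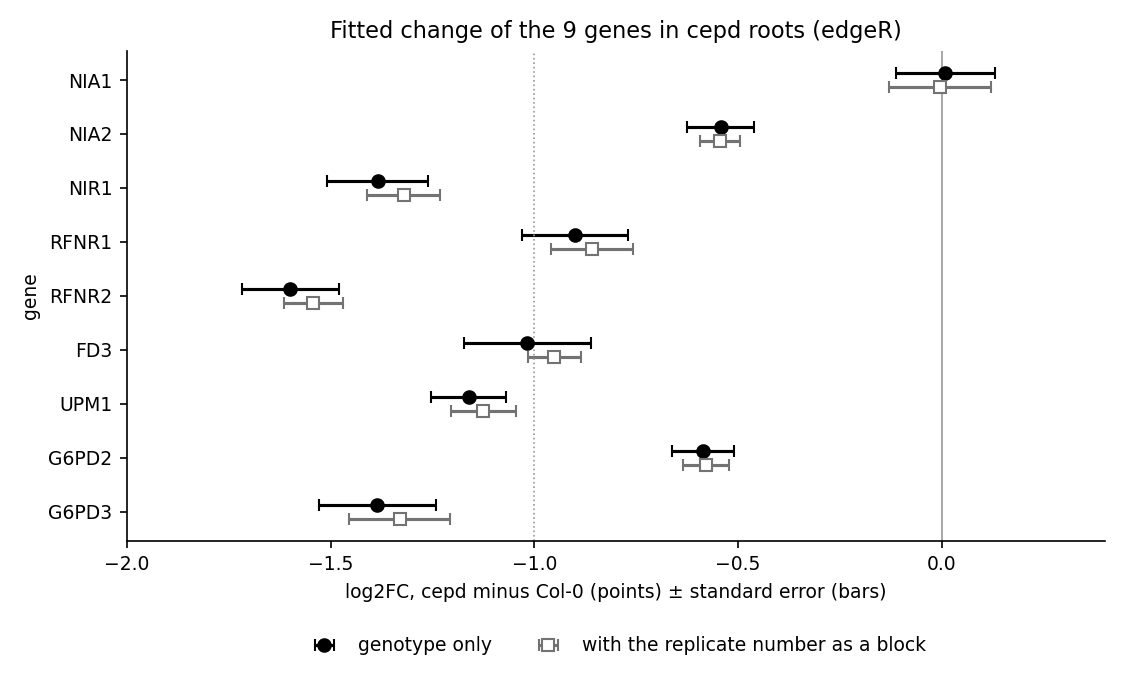
Log2FC of each of the 9 genes, cepd minus Col-0 (horizontal axis), with its standard error as the bar, from edgeR with genotype only (filled circles) and with the replicate number as a block (open squares). RFNR2 lies farthest below 0 at -1.60, NIA1 lies at 0.01, and FD3 sits beside the dotted line that marks a 2-fold drop.

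**Figure D3:**
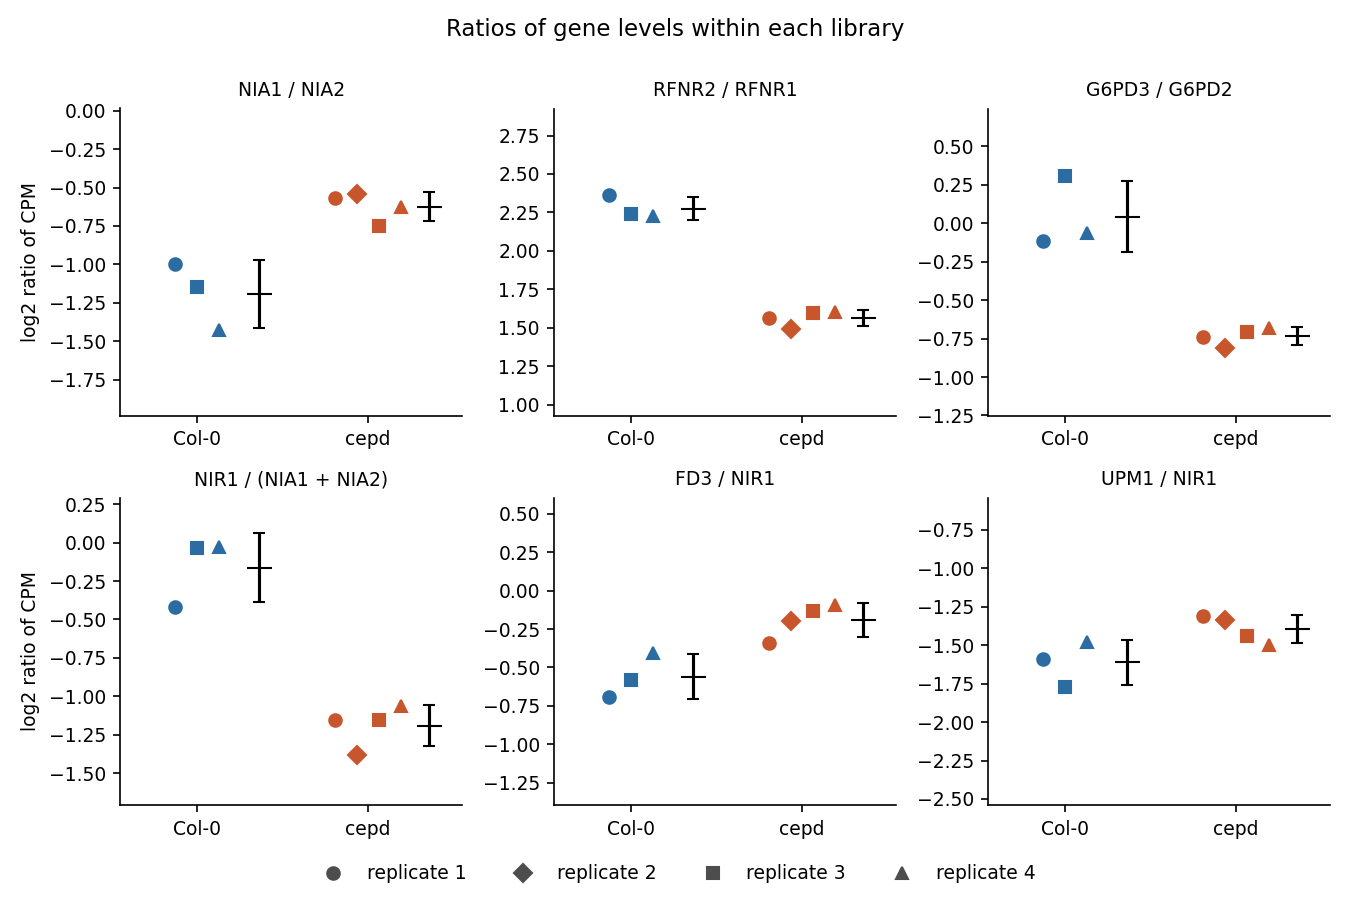
Log2 ratios of CPM within each library (vertical axes, each spanning 2 log2 units) for 6 pairs of genes or sums in the 3 Col-0 (blue) and 4 cepd (orange) libraries, with mean and SD in black. The groups separate in 5 panels and overlap in that of UPM1 to NIR1.

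Thus within each pair of isoforms 1 gene kept more of its level: NIA1, RFNR1 and G6PD2 were at 101, 53.6 and 66.6% of Col-0, against 68.7, 33 and 38.3% for NIA2, RFNR2 and G6PD3. As to reads that isoforms could share, NIA1 and NIA2 were 73.8% identical in coding sequence with no stretch of 50 bases in common, RFNR1 and RFNR2 were 77.3% identical with none, and G6PD2 and G6PD3 were 84.5% identical with 3. The annotation also places AT5G40855 on the opposite strand across 203 bases of UPM1, and AT1G05867 and AT1G24290 across 44 and 76 bases of G6PD3. These held 0 to 1, 0 to 8 and 44 to 100 counts per library, and without strand information their reads cannot be told from those of the members.

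Per kilobase of exon, FD3 was the most abundant of the 9 in Col-0, at 616 ± 139 CPM per kb (SD, n = 3), followed by RFNR2 at 462 ± 81.8 and NIR1 at 408 ± 80.2 CPM per kb. The spreads of these neighbours overlapped. NIA2 followed at 215 ± 21.8 CPM per kb, apart from both its neighbours. UPM1 (107 ± 13.9), NIA1 (96.7 ± 19.1), RFNR1 (80.0 ± 17.4), G6PD3 (71.3 ± 17.7) and G6PD2 (63.5 ± 5.57 CPM per kb) then formed a run in which each overlapped the next. In cepd FD3 was still first at 304.5 ± 41.3 CPM per kb (SD, n = 4). NIR1 (156 ± 12.3), RFNR2 (152.5 ± 12.7) and NIA2 (147.6 ± 7.57 CPM per kb) had drawn together and overlapped in turn. NIA1 came next at 97.3 ± 4.37 CPM per kb, above UPM1 (47.7 ± 2.02), RFNR1 (42.9 ± 2.19) and G6PD2 (42.3 ± 1.57), and G6PD3 was last at 27.3 ± 1.88 CPM per kb. Among 20549 nuclear genes ranked by this measure, NIR1 moved from place 199 to 620, RFNR2 from 157 to 634 and G6PD3 from 1656 to 4455, while NIA1 was at 1207 in Col-0 and 1127 in cepd.

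The 3 Col-0 libraries also differed among themselves in a way the 9 genes shared. Replicate 3 was the highest Col-0 library for 9 of the 9 genes, as it was for 27.8% of all genes tested, and replicate 1 was the lowest for 7, beside 37.7%. NIA1 and NIA2 were the exceptions, with replicate 4 lowest, as for 35.6% of all genes. The highest Col-0 library was 1.19 (G6PD2) to 1.6 times (G6PD3) the lowest, whereas in cepd the corresponding factor was 1.09 (G6PD2) to 1.3 (FD3). The photosynthesis genes had the opposite order among these libraries, with their highest summed level in Col-0 replicate 1 (368.2 CPM) and their lowest in replicate 3 (277.5 CPM). Compared within replicate numbers, NIR1 was lower in cepd by log2 differences of -1.15, -1.59 and -1.22 in replicates 1, 3 and 4, and G6PD3 by -1.13, -1.69 and -1.16. For NIA1 the within-number differences were -0.15, -0.21 and 0.35. NIA1 was thus lower in replicates 1 and 3 and higher in replicate 4. The other 8 genes were lower in each number, which follows from their groups not overlapping, as for 13.8% of all genes, and adds nothing to it. The share of all genes lower in each number was not counted.

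The profiles over the 7 libraries paired genes of different steps. Likeness was measured as the root mean square difference between log2 CPM profiles, each centred on the gene's mean, against 13031 other genes with a mean of at least 10 CPM. It describes these libraries and carries no test, since the genotype difference and the libraries' own differences enter together. The nearest gene to NIR1 of all 13031 was G6PD3, and the nearest to G6PD3 was NIR1, at a difference of 0.047 on the log2 scale. RFNR2 ranked 7 and UPM1 13 from NIR1. FD3 and RFNR1 were close to each other (0.102, rank 2 from FD3 and 6 from RFNR1), as were NIA2 and G6PD2 (0.077, rank 13 from NIA2 and 33 from G6PD2). Of genes outside the 9, the nearest to NIR1 were AT2G48080, AT4G17670, PGD3, CCP3 and BAT1, at 0.094 to 0.115. PGD3 (AT5G41670) encodes a 6-phosphogluconate dehydrogenase, the enzyme that makes the second NADPH of the pathway begun by G6PD3. The nearest to NIA1 were ABO6, RECQSIM, AT4G04670, SPC98 and NRPA2, at 0.058 to 0.068, and no member ranked closer to NIA1 than NIA2 at place 11304.

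**Figure D4:**
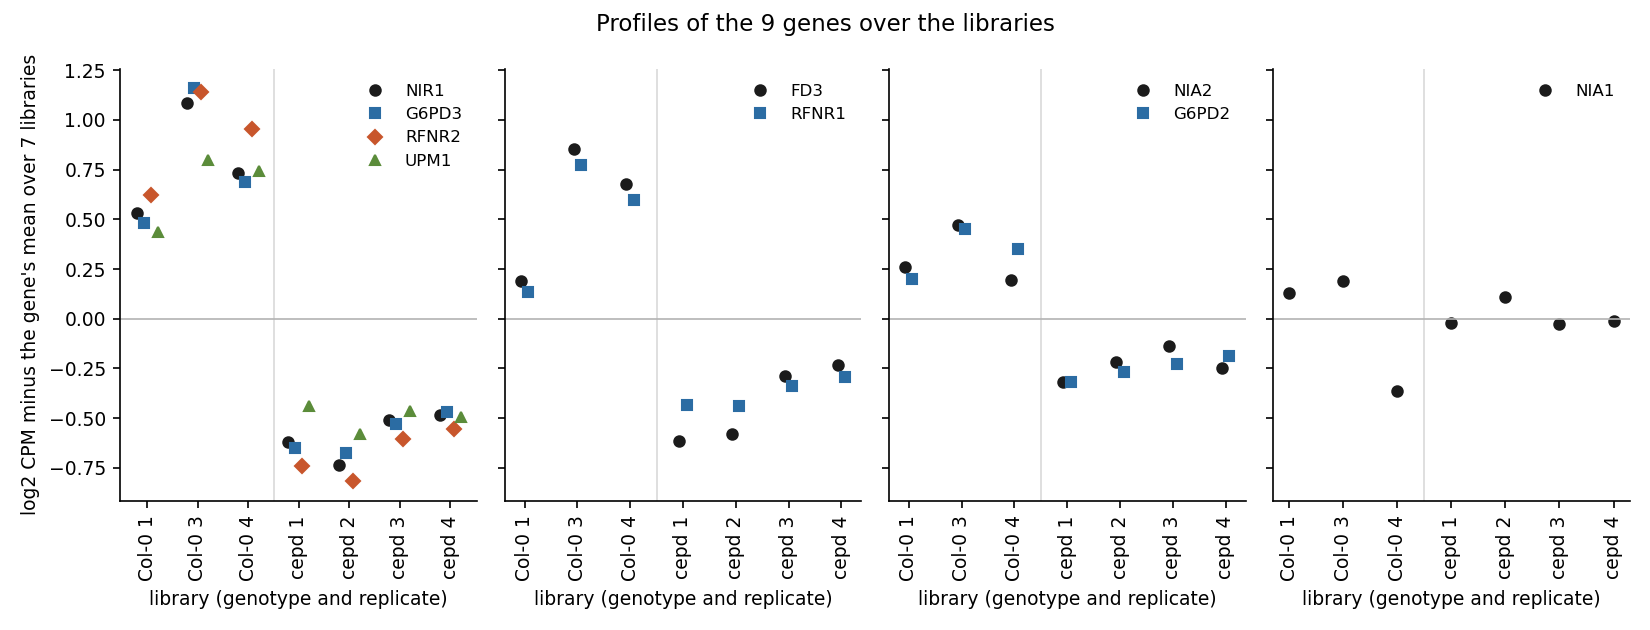
Log2 CPM of each gene minus its mean over the 7 libraries (vertical axis), by library (horizontal axis, 3 Col-0 then 4 cepd). The 4 panels were set by hand. UPM1 is shown with NIR1, its nearest member (0.146), but was nearer to RFNR1 (0.165) and FD3 (0.167) than to RFNR2 (0.230). NIR1 and G6PD3 nearly coincide, with a root mean square difference of 0.047, FD3 and RFNR1 lie together, and NIA1 has no step between the genotypes.

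By the median log2FC of their genes, the pathways around the 9 genes did not move with them as wholes. The summed level of the pentose phosphate genes was nonetheless lower in cepd, as given below. The counts in these lists stand beside 8.3% of all genes tested that were lower and 9.64% that were higher. Of 16 other genes for the molybdenum cofactor and the enzymes that use it, 15 could be tested, and the median log2FC was -0.08. MOT1, a molybdate transporter, fell, with 14.8, 16.1 and 15.8 CPM in Col-0 and 5.74, 5.03, 4.89 and 4.72 CPM in cepd (log2FC -1.61, standard error 0.09, adjusted p = 9.45e-06 with edgeR). Its groups were far apart, and no other gene of the list passed. The next by p were the aldehyde oxidase gene AAO1 (log2FC 0.33, adjusted p = 0.0841), ATM3, a mitochondrial transporter that cofactor synthesis needs (-0.20, adjusted p = 0.0882), and SOX, sulfite oxidase (-0.14, adjusted p = 0.17). With the replicate block, 2 genes (MOT1 and ATM3) were lower and 1 (AAO1) higher, beside 13.2 and 13.9% of all genes in that fit.

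Among 15 other genes of tetrapyrrole and siroheme synthesis, none fell and 4 rose, with a median log2FC of 0.17. Over all genes tested the shares were 8.3 and 9.64%. Those 4 were HEMA1, the glutamyl-tRNA reductase at the head of the pathway (log2FC 0.34, adjusted p = 0.00472), the ferrochelatase gene FC2 (0.38, adjusted p = 0.00659), HEMD, which makes the substrate of UPM1 (0.43, adjusted p = 0.00838), and HEME2, which draws that substrate toward haem and chlorophyll (0.38, adjusted p = 0.0112). HEMA1 had 51.7 to 52.3 CPM in Col-0 and 63.4 to 68.2 CPM in cepd. SIRB, the ferrochelatase that completes siroheme, averaged 12.9 ± 1.69 CPM over the 3 Col-0 libraries (SD) and 12.5 ± 1.08 CPM over the 4 cepd libraries (log2FC -0.04, adjusted p = 0.853). So of the siroheme-specific steps UPM1 passed the test and SIRB did not. SIRB was singled out for its place in the pathway.

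Of 10 other ferredoxin system genes, 8 could be tested, none fell (8.3% over all genes tested) and 4 rose (9.64%), with a median log2FC of 0.43. LFNR1, a leaf-type ferredoxin-NADP+ reductase, rose from 12.4, 11.9 and 11.6 CPM in Col-0 to 26.0, 24.1, 23.3 and 23.3 CPM in cepd (log2FC 1.02, standard error 0.07, adjusted p = 5.19e-05 with edgeR). FD2, the main leaf-type ferredoxin, rose from 50.2, 47.8 and 48.4 CPM to 67.5, 63.4, 66.1 and 80.1 CPM (log2FC 0.51, adjusted p = 0.00406). Both were higher in every cepd library, opposite in direction to their root-type counterparts RFNR1, RFNR2 and FD3. LFNR2 (0.68, adjusted p = 0.0203) and the ferredoxin-dependent glutamate synthase gene GLU1 (0.53, adjusted p = 0.0498) also rose. These 4 genes are also known from leaf chloroplasts, and the photosynthesis genes named above were higher in the same libraries. Their part in these rises was not tested. The count of risen genes was 2 when Col-0 replicate 4, cepd replicate 1 or cepd replicate 2 was left out. SIR, sulfite reductase, which uses siroheme and ferredoxin as NIR1 does, averaged 424 ± 27.8 CPM over the 3 Col-0 libraries (SD) and 405 ± 12.6 CPM over the 4 cepd libraries (log2FC -0.07, adjusted p = 0.535). With the replicate block 1 gene of this list was lower, the glutamate synthase gene GLU2, beside 13.2% of all genes in that fit. SIR and GLU2 were named after their values had been seen.

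The other genes of the oxidative pentose phosphate pathway split. Of 26, 24 could be tested, 7 fell (8.3% over all genes tested) and 4 rose (9.64%), and the median log2FC was -0.09. The summed level of the 26 was 4284, 5094 and 4541 CPM in the Col-0 libraries. It was lower in every cepd library, at 3175, 3142, 3274 and 3242 CPM. PGD3 stood at 435, 760.0 and 534 CPM in Col-0 and at 191, 183.5, 203 and 206 CPM in cepd (log2FC -1.56, standard error 0.16, adjusted p = 0.000271 with edgeR), a drop like that of G6PD3 and with the same high Col-0 replicate 3. The transaldolase gene TRA2 (log2FC -0.81, adjusted p = 0.000625), the transketolase gene TKL1 (-0.61, adjusted p = 0.000699) and PGD1, another 6-phosphogluconate dehydrogenase gene (-0.51, adjusted p = 0.000779), fell too. So did GPT1, which imports glucose 6-phosphate into plastids (-0.52, adjusted p = 0.000806), PGI1, the plastid phosphoglucose isomerase (-0.45, adjusted p = 0.000922), and PGD2 (-0.31, adjusted p = 0.0133), which were named after their values had been seen. The 4 that rose were all low: G6PD1 went from 6.56, 3.64 and 5.75 CPM in Col-0 to 14.3, 16.5, 12.4 and 11.8 CPM in cepd (log2FC 1.37, adjusted p = 0.00149), and G6PD4 (0.61, adjusted p = 0.0101), the lactonase gene PGL1 (0.68, adjusted p = 0.00794) and the isomerase gene RPI4 (0.54, adjusted p = 0.0167) averaged below 8 CPM in both genotypes. Thus of the glucose-6-phosphate dehydrogenase genes, G6PD2 and G6PD3 fell, G6PD1 and G6PD4 rose, and G6PD5 and G6PD6, the cytosolic forms, did not pass (log2FC 0.06 and -0.18, adjusted p = 0.654 and 0.0863). With the replicate block G6PD6 was lower (log2FC -0.18, adjusted p = 0.0247 with edgeR), and its cepd libraries all lay below its Col-0 libraries.

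**Figure D5:**
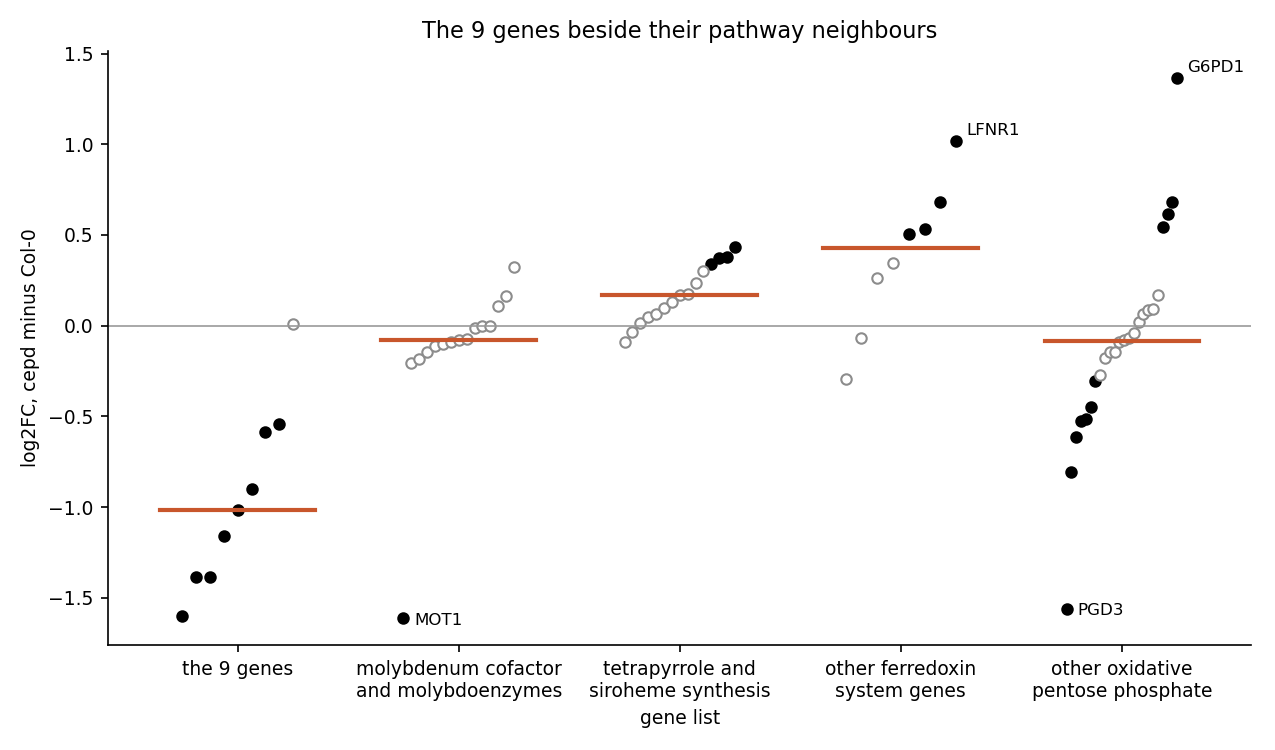
Log2FC, cepd minus Col-0 (vertical axis), of each tested gene in 5 lists (horizontal axis), filled where the adjusted p was under 0.05 and open where it was not, with each list's median as an orange bar. The 9 genes have a median of -1.02, and the medians of the neighbouring lists lie between -0.09 and 0.43. Among the genes of the neighbouring lists, MOT1, PGD3, G6PD1 and LFNR1 lie farthest from 0.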

How the data were processed

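RNA-seq libraries (TruSeq RNA v2) of Arabidopsis roots were deposited by the authors as raw counts per gene, 1 table per library. The submitters' processing notes name CASAVA 1.8.2, STAR 2.5.2b-2, HTSeq 0.9.1, DESeq2 2.11.40.6 and the TAIR10 genome. Read length and the counting mode are not given in the sources used here. A count table keeps no strand information, and reads shared between genes cannot be recovered.

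The 20600 genes kept by filterByExpr (minimum count 10, total 15) were fitted with edgeR 4.0.16 (TMM scaling, quasi-likelihood F test, robust, genotype only), with Benjamini-Hochberg adjustment. CPM used TMM-scaled library sizes (factors 0.986 to 1.02). On simulated data for this comparison the fit recovered 21, 43, 47 and 50 of 50 changed genes at log2FC 0.5, 1, 1.5 and 2, and called 8 of 20400 unchanged ones. Far fewer genes were changed there than were called in the real data (1710 lower and 1986 higher), and the adjustment depends on that share. These recoveries therefore need not hold for the real comparison. For the replicate block, equal numbers were taken as pairs, since samples came from separate experiments. The labels do not say that same-numbered libraries shared an experiment. Such libraries deviated together, with correlations of 0.435, 0.189 and 0.274 for numbers 1, 3 and 4. Of the pairs with different numbers, 3 also exceeded 0.1. Among them Col-0 replicate 3 with cepd replicate 4, at 0.192, exceeded the value of number 3. Alternatives were the replicate block, DESeq2 1.42.0 and its size factors, limma-voom 3.58.1, no filter, nuclear genes only, and leaving out each library. Ratios were compared by exact permutation. Members and lists were chosen with earlier results of these data known. From each list up to 4 genes with the smallest adjusted p were named, with any that passed against the list's main direction. Sequences and coordinates are from RefSeq's TAIR10.1, whose 32548 nuclear gene identifiers match those in the tables.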

Additional observations from a re-analysis of the deposited data

Results flagged for a closer look

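NIA1 in cepd drew attention because 1 library stood apart from the rest of its group. Replicate 2 had 328 CPM, while the other 3 cepd libraries lay between 299.0 and 302 CPM, and the gap from replicate 2 to the nearest of the others was 0.906 of the group's whole range, above Dixon's 95% critical value for 4 samples. Chance marks about 1 in 20 groups in this way. The gap was small beside the range of NIA1 in Col-0, 236 to 347 CPM.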

How the results depend on the processing

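Under all 13 alternatives the same 8 genes were lower at an adjusted p under 0.05 and NIA1 was not. The count past 2-fold was 4 with the replicate block and 4 to 6 over the leave-one-out fits. The log2FC of NIA1 changed sign to -0.0042 with the replicate block, -0.1443 without Col-0 replicate 4 and -0.0245 without cepd replicate 2, and ranged from -0.1443 to 0.1107 over the leave-one-out fits. In 3 differences within replicate numbers (the replicate block) the log2 ratios were 0.54 (NIA1 to NIA2), -0.69 (RFNR2 to RFNR1), -0.75 (G6PD3 to G6PD2), -0.96 (NIR1 to the nitrate reductases) and 0.37 (FD3 to NIR1), each at an adjusted p of 0.3, since 3 pairs cannot give an exact p under 0.25. Leaving out a library, they ranged from 0.45 to 0.66, -0.73 to -0.67, -0.86 to -0.64, -1.16 to -0.96 and 0.30 to 0.45, where the smallest possible p is 0.0667 without a Col-0 library and 0.1 without a cepd library. With the replicate block the molybdenum cofactor list had 2 genes lower and 1 higher, the ferredoxin list 1 lower and 5 higher (FD1 gained), the tetrapyrrole list 6 higher (GSA2 and HEMC gained), the pentose phosphate list 9 lower (G6PD6 and RPI1 gained) and the photosynthesis list 15 higher (LHCB1.2 and GOX1 gained). The block changed no call at that threshold on the 9 genes. It moved the calls over all genes from 1710 lower and 1986 higher (8.3 and 9.64%) to 2727 and 2866 (13.2 and 13.9%). Leaving out libraries gave 998 to 2591 lower and 1167 to 2597 higher. Leaving out libraries, the molybdenum cofactor list ranged from 1 to 2 lower and 0 to 1 higher, and the ferredoxin list from 2 to 4 higher.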
